A study of Mus musculus with 2 samples.

Results

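The 4 genes described here are Mir23a, Mir23b, Mir27a and Mir27b, the Mir23 and Mir27 genes of a pair of paralogous microRNA clusters on mouse chromosomes 8 and 13. They were taken by gene symbol in the GENCODE M21 annotation (mm10 assembly) from a table of 1973 counted miRNA genes, by a rule that names symbols and uses no measured value, though the group was proposed with earlier results of these data known. A gene counts as detected where each library holds 10 or more of its reads, which was true of all 4 and of 371 of the 1973 genes. The tissue was neural tube, the embryonic structure that becomes brain and spinal cord, dissected from strain B6NCrl mouse embryos at embryonic day 12.5. The labels describe healthy tissue with males and females pooled and give 2 biological replicates, a pool of 120 embryos (replicate 1) and a pool of 88 (replicate 2). There is no other tissue, age or treatment, so the values compare genes within the tissue and the replicate libraries with each other.

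MicroRNA genes of this kind are transcribed together as 1 long primary transcript. The nuclear enzyme Drosha cuts out each hairpin, Dicer removes its loop, and 1 strand of the duplex, either the 5p or the 3p arm, is loaded into an Argonaute protein, where bases 2 to 8, the seed, pair with target mRNAs. The Mir23, Mir27 and Mir24 hairpins lie in this order in both clusters, which arose by duplication. The clusters are known for roles in blood vessel growth, blood cell formation and fat cell differentiation, and Mir23 also for repression of lamin B1 in myelinating cells.

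The mature arms are shown because the table counts hairpin genes, and whether a read can be assigned to 1 gene depends on these letters. RefSeq (GRCm38.p6) holds hairpins for all 4 genes and 7 mature arms, which are printed 5′ to 3′ with the seed in capitals. The arm miR-23b-3p is not used here. 
miR-23a-3p: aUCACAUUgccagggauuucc
miR-27a-3p: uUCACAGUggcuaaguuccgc
miR-27b-3p: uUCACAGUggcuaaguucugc
miR-23a-5p: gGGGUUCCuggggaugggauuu
miR-23b-5p: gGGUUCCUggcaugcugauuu
miR-27a-5p: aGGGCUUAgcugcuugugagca
miR-27b-5p: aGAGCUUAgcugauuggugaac

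The 3p arms of the paralogs are nearly the same. Counted from 1 at the 5′ end, miR-27a-3p and miR-27b-3p differ at 1 of 21 bases, C19U (the miR-27a-3p base first), and share the seed. The hairpin of Mir23b matches miR-23a-3p at 20 of 21 bases, with U19A as the difference (the miR-23a-3p base first). A read that starts at the first base of these 3p arms therefore has to reach base 19 before it occurs in 1 hairpin of the RefSeq table only. Shorter reads match both paralogs, and reads mapping to several places are in no gene's count. The 5p arms separate earlier: miR-27a-5p and miR-27b-5p differ at 8 of 22 bases, and the first 11 bases of miR-23a-5p, or of miR-23b-5p, occur in 1 hairpin. Copies outside annotated hairpins were not searched.

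Between the Mir23 and the Mir27 hairpins the likeness is short. The longest run shared by any Mir23 and any Mir27 hairpin is 8 bases (Mir23b and Mir27a), against 20 bases for Mir23a and Mir23b and 20 for Mir27a and Mir27b. The arms miR-23a-3p and miR-27a-3p have the same base at 11 of 21 positions, and their seeds differ by U7G. In full, the hairpins of the Mir27 genes, with the mature arms in capitals, show where the arms lie.
Mir27a: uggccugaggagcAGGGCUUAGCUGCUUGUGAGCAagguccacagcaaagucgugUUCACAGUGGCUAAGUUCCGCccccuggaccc
Mir27b: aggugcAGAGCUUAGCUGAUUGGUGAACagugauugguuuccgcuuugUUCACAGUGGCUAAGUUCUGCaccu

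Mir23a lies at chr8:84208518-84208592 and Mir27a at chr8:84208672-84208758, both on the plus strand (mm10). The 2 hairpins are 79 bases apart, and neither overlaps another gene in GENCODE M21. Mir23b (chr13:63300484-63300557) and Mir27b (chr13:63300712-63300784) are 154 bases apart on the plus strand, inside the protein-coding gene 2010111I01Rik on the same strand. Mir23b overlaps none of the annotated exons of that gene, while Mir27b lies within 1 exon, of a transcript annotated as subject to nonsense-mediated decay. Both also lie within Fancc, outside its exons, a gene of the Fanconi anaemia DNA repair pathway on the other strand. The identifiers of Mir23b and Mir27b have a later version in M21 than in the count table, so their counted bounds may differ from these.

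**Figure D1:**
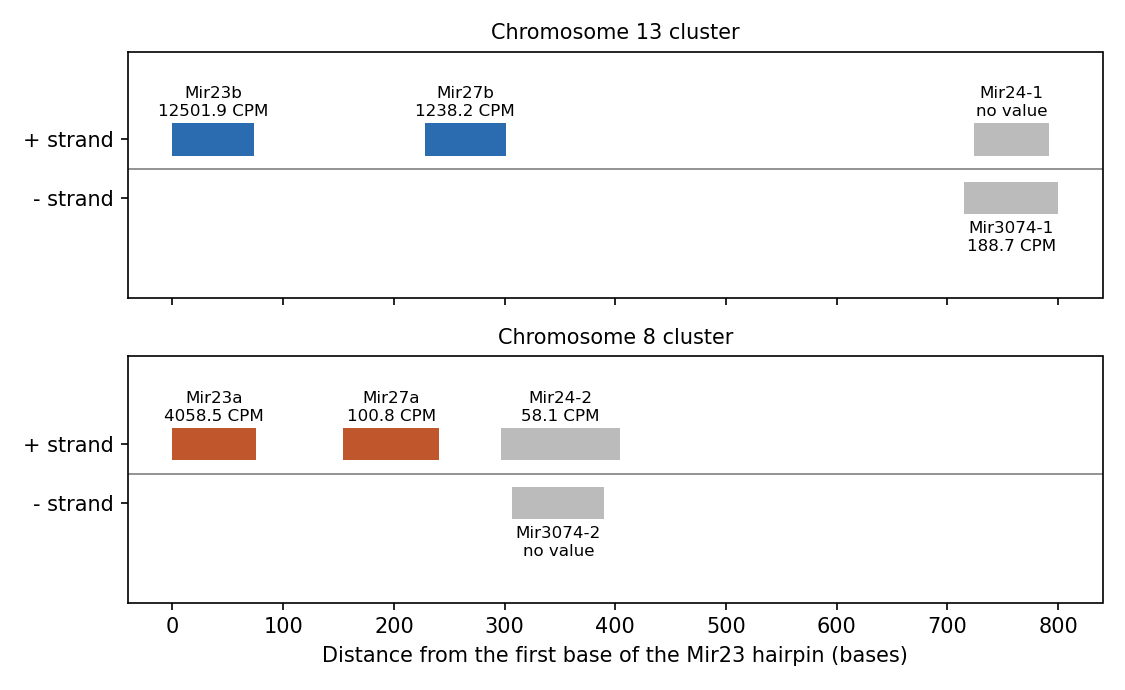
Map of the 2 clusters, with distance in bases from the first base of the Mir23 hairpin on the horizontal axis and the strand on the vertical axis. Boxes are hairpins to scale, coloured for the Mir23 and Mir27 genes and grey for the others, with the mean CPM of the 2 libraries; "no value" marks genes not analysed here. The Mir23 hairpin comes first and has the highest value among the genes given one in each cluster. Reads of miR-24-3p, which match both Mir24 genes, are in no count.

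The libraries held 4802411 (replicate 1) and 4422853 (replicate 2) reads on the own strand of miRNA genes, and levels are given per 1000000 of these reads (CPM). Reads mapping to several places, 3448592 and 2698981 in the files, are outside these totals. A gene count joins the 5p and the 3p arm. A small RNA gives 1 read whatever the length of its hairpin, so CPM was not divided by length, and the 4 hairpins are 73 to 87 bases long. Ratios between genes are ratios of reads, since the capture efficiency of each sequence is unknown. In a tissue pool, fewer cells of a type and less RNA per cell cannot be told apart. Marker miRNA genes were also summed. Those of the Hox clusters, which mark position along the body axis rather than neural tissue, summed to 354630 ± 10331 CPM (SD, n = 2). The 7 counted neuronal genes (Mir124a, Mir128 and Mir9 genes) summed to 633.1 ± 86.4 CPM, with 5 of the 7 detected. They are several copies each of Mir124a, Mir128 and Mir9, and a read that matches more than 1 copy is in no gene's count. The neuronal sum therefore does not give the level of these miRNAs.

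The 4 genes together held 1.93% of the gene reads in replicate 1 (92759 reads, 95% interval 1.92 to 1.94, Clopper-Pearson) and 1.65% in replicate 2 (72905 reads, 1.64 to 1.66), a mean of 1.79% ± 0.200 (SD, n = 2). Intervals here and below cover read-counting error only, not the spread between libraries. Amplified reads need not come from separate molecules, so the intervals may be too narrow even for that error. The reads were unevenly spread. Mir23b alone held 69.9% ± 0.119 of the members' reads, Mir23a 22.6% ± 1.03, Mir27b 6.96% ± 0.809 and Mir27a 0.569% ± 0.107.

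Mir23b was the most abundant of the 4, with 64716 reads (13476 CPM) in replicate 1 and 50987 reads (11528 CPM) in replicate 2. Its mean of 12502 ± 1377 CPM placed it at rank 15 of all counted genes, and 96.0% of the detected genes had a lower mean. The next gene above was Mir26b (12751 ± 66.1 CPM) and the next below Mir322 (11750 ± 388.9 CPM). Neither differed from Mir23b by more than the SD of Mir23b, though both differed by more than their own SD.

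Mir23a had 21657 reads (4510 CPM) in replicate 1 and 15955 reads (3607 CPM) in replicate 2, a mean of 4058.5 ± 638.0 CPM at rank 48. Both values lie below both values of Mir23b. Mir125a (4244 ± 1168 CPM) and Mir92-1 (3977 ± 608.5 CPM), next above and below in the order, were within 1 SD of it.

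Mir27b had 5928 reads (1234 CPM) and 5493 reads (1242 CPM) in replicates 1 and 2, a mean of 1238 ± 5.36 CPM at rank 78. Its libraries lay closest together among the 4 genes, with a coefficient of variation of 0.433% against 7.64% to 15.7% for the others and a median of 11.5% over all detected genes. The counting intervals were 1203 to 1266 CPM in replicate 1 and 1209 to 1275 CPM in replicate 2. Each is wider than the gap between the libraries, so with 2 libraries this closeness does not measure precision. The neighbours of Mir27b in the order, Mir708 (1255 ± 155.5 CPM) and Mir106a (1221 ± 149.2 CPM), differed from it by more than its SD but by less than their own.

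Mir27a was by far the lowest, with 458 reads (95.4 CPM) in replicate 1 and 470 reads (106.3 CPM) in replicate 2. The mean of 100.8 ± 7.71 CPM stood at rank 193, a little below the median of the detected genes, 114.7 CPM. Mir135a-2 (102.9 ± 0.607 CPM) and Mir500 (100.3 ± 1.21 CPM) differed from Mir27a by less than the SD of Mir27a, though Mir135a-2 differed by more than its own SD. At 458 and 470 reads the exact interval was 86.8 to 104.5 CPM in replicate 1 and 96.9 to 116.3 CPM in replicate 2, so these overlap.

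**Figure D2:**
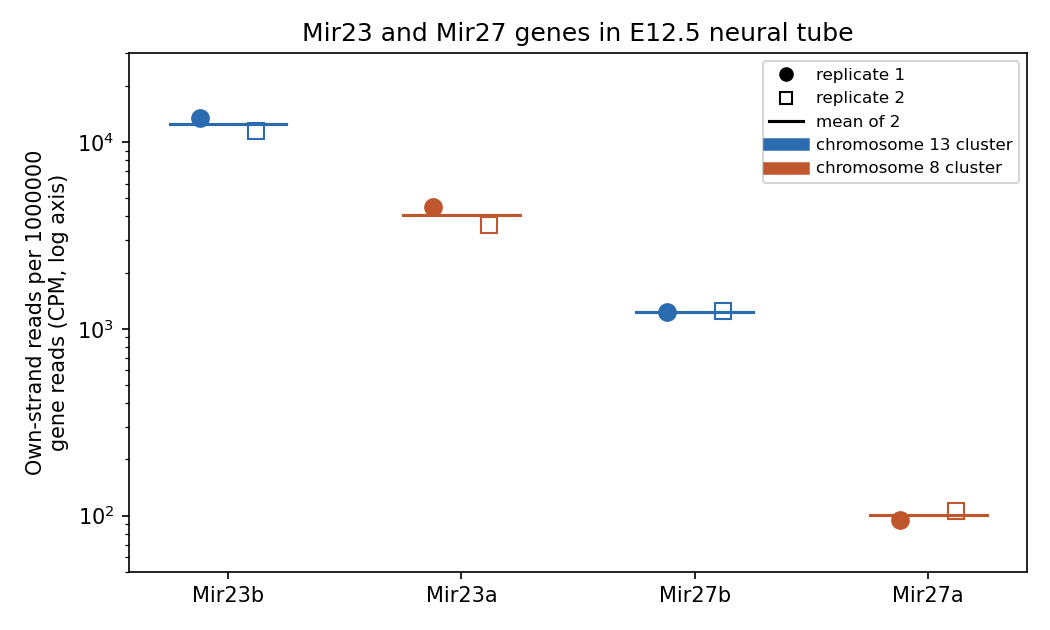
Own-strand reads per 1000000 gene reads (CPM, log axis) of the 4 genes, with circles for replicate 1, squares for replicate 2, and a line at the mean. The values of neighbouring genes do not overlap: Mir23b lay at 11528 and 13476 CPM, Mir23a at 3607 and 4510, Mir27b at 1234 and 1242 and Mir27a at 95.4 and 106.3.

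The order Mir23b, Mir23a, Mir27b, Mir27a was the same in both libraries and no neighbouring values overlapped, as the plot of levels by library shows. With 2 libraries, no exact two-sided test of the direction of a single ratio can go below p = 0.5, so each ratio is given with its SD and no test.

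**Figure D3:**
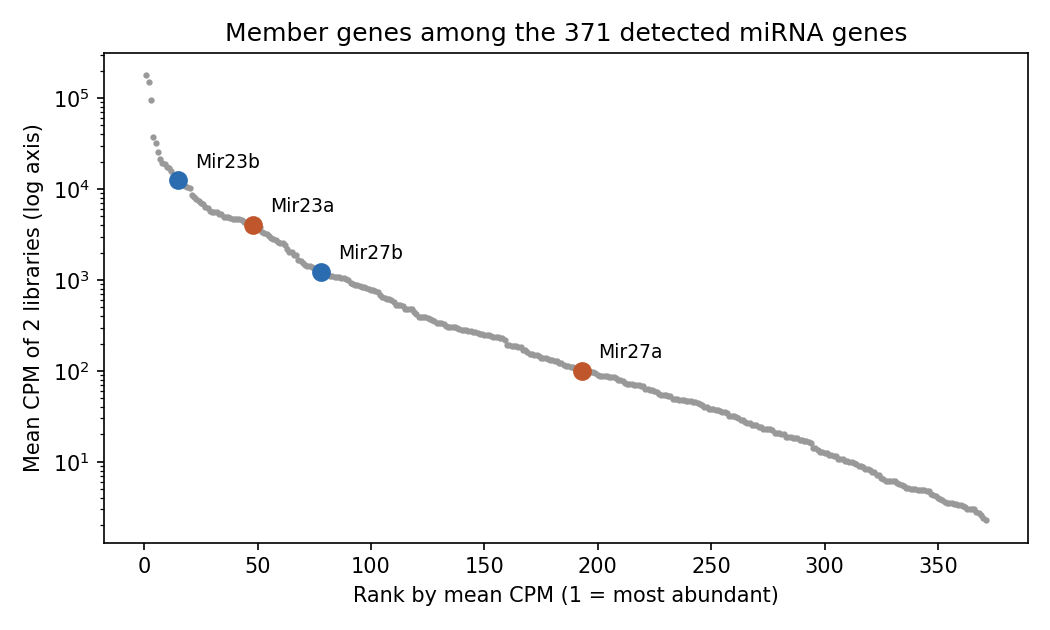
Mean CPM of the 2 libraries (log axis) against rank for the 371 detected miRNA genes (grey), with the 4 genes coloured by cluster (chromosome 13 blue, chromosome 8 orange). Mir23b, Mir23a, Mir27b and Mir27a stand at ranks 15, 48, 78 and 193.

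The chromosome 13 copy gave more reads than the chromosome 8 copy for both genes. Mir23b outnumbered Mir23a 2.99 times in replicate 1 (interval 2.94 to 3.03) and 3.20 times in replicate 2 (3.14 to 3.25), a mean ratio of 3.09 ± 0.147. Mir27b outnumbered Mir27a 12.9 times (11.8 to 14.3) and 11.7 times (10.6 to 12.9), a mean of 12.3 ± 0.888. The excess of the chromosome 13 copy was thus larger for Mir27 than for Mir23 in both libraries, 4.33 times in replicate 1 and 3.66 times in replicate 2 (3.99 ± 0.477). Taking both genes of a cluster together, the chromosome 13 cluster held 76.2% of the members' reads in replicate 1 and 77.5% in replicate 2 (76.8% ± 0.928). As the 3p arms of the paralogs part only at base 19, these ratios hold for uniquely assigned reads, and how reads mapping to several places divide between the copies was not tested.

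Within each cluster Mir23 had far more uniquely assigned reads than Mir27. How reads mapping to several places divide between Mir23 and Mir27 was not tested. Mir23a outnumbered Mir27a 47.3 times in replicate 1 (43.1 to 52.0) and 33.9 times in replicate 2 (31.0 to 37.3), a mean of 40.6 ± 9.43. The ratio of Mir23b to Mir27b was 10.9 (10.6 to 11.2) and 9.28 (9.03 to 9.55), a mean of 10.1 ± 1.16. Both ratios were higher in replicate 1, and their counting intervals do not overlap between the libraries. Per base of hairpin, an alternative chosen after seeing the data, the means were 47.1 for Mir23a over Mir27a and 9.96 for Mir23b over Mir27b.

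The third hairpin of each cluster belongs to Mir24, whose main arm is the same in both copies. Its sequences show why Mir24 counts cannot be read as the level of this miRNA. 
miR-24-3p (Mir24-1 and Mir24-2): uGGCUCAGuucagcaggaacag
miR-24-1-5p: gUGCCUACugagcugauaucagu
miR-24-2-5p: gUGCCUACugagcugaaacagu
A miR-24-3p read matches both hairpins and so maps to several places, while the 5p arms become unique at base 17. Mir24-2 (chr8:84208815-84208921) had 255 reads (53.1 CPM) in replicate 1 and 279 reads (63.1 CPM) in replicate 2, a mean of 58.1 ± 7.06 CPM. Mir27a outnumbered it 1.74 ± 0.0788 times. Mir24-1 and Mir3074-2 were not analysed here.

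Mir3074-1 lies antisense to Mir24-1 in M21 (chr13:63301199-63301283, minus strand), and its identifier also has a later version there than in the count table. It had 851 reads (177.2 CPM) in replicate 1 and 885 reads (200.1 CPM) in replicate 2. The strand these values were counted on in the M4 annotation is therefore in doubt, and which of the overlapping hairpins the reads come from was not tested. The Mir23 and Mir27 genes had no such mixture: of their reads, 0 in replicate 1 and 1 in replicate 2 (at Mir27b) lay on the opposite strand. The 0 of 92759 reads in replicate 1 allows a share of up to 0.00323%. The only other counted miRNA genes within 50 kb of a member were Mir181c and Mir181d, 29.6 and 29.7 kb from Mir23a on the opposite strand in M21. Mir181c had 6879 ± 741.6 CPM and Mir181d 4322 ± 122.0 CPM, above Mir23a in mean, though Mir181d differed from Mir23a by less than the SD of Mir23a.

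Among the 1738 RefSeq mature entries used here, none outside the Mir27 genes has the seed of miR-27a-3p and miR-27b-3p. The 7 letters of the miR-27 seed recur shifted by 1 base in miR-128-3p, a neuronal miRNA, which is printed with these letters in capitals.
miR-128-3p: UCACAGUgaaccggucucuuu
The levels of its genes lay between those of Mir27a and Mir27b in both libraries. Mir128-1 had 234.3 and 152.2 CPM, and Mir128-2 172.4 and 107.2 CPM, in replicates 1 and 2. In replicate 2 the counting intervals of Mir128-2 (97.7 to 117.3 CPM) and Mir27a (96.9 to 116.3 CPM) overlap. The arm is the same in both genes, so these uniquely assigned reads do not give its level.

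Between the libraries the Mir23 genes were higher in replicate 1, while Mir27b and Mir27a were not. The ratio of replicate 1 to replicate 2 was 1.25 for Mir23a (counting interval 1.22 to 1.28) and 1.17 for Mir23b (1.16 to 1.18). It was 0.994 for Mir27b (0.958 to 1.03) and 0.897 for Mir27a (0.787 to 1.02), whose intervals include 1. With TMM-scaled totals, which allow for a few abundant genes taking a larger share of 1 library, the ratio of Mir27a was 0.874 (0.766 to 0.996) and that of Mir23b 1.14 (1.12 to 1.15), so the interval of Mir27a then lay below 1. None of the 4 genes was at least 1.5-fold apart, a size that 44 of the 371 detected genes reached (11.9%). On the scale of log2(CPM + 1), the differences were 0.32 for Mir23a, 0.23 for Mir23b, -0.01 for Mir27b and -0.15 for Mir27a, beside a median absolute difference of 0.23 over all detected genes. A larger absolute difference was seen in 120 detected genes for Mir23a and in 185 for Mir23b. Among genes within 2-fold of the member's mean CPM, it was seen in 8 of 40 for Mir23a and in 7 of 20 for Mir23b, and the median absolute difference of these genes was 0.22 and 0.14.

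**Figure D4:**
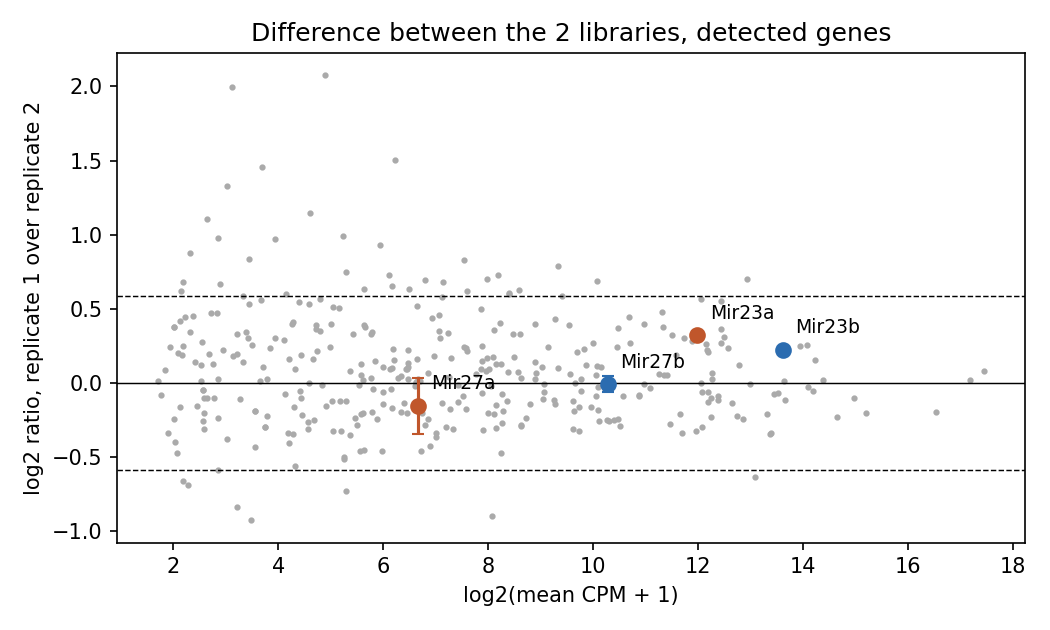
Log2 ratio of replicate 1 to replicate 2 against log2(mean CPM + 1) for detected genes (grey), with the 4 genes coloured by cluster (chromosome 13 blue, chromosome 8 orange) and bars for the 95% counting interval of the ratio. Dashed lines mark 1.5-fold; Mir23a (0.32) and Mir23b (0.23) lie above 0, and all 4 genes lie between the lines.

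Markers of cell types that could be in the tissue were compared between the libraries in the same way, and members of a list did not always move together. The 3 oligodendrocyte lineage genes were Mir219a-1, Mir219a-2 and Mir338, known from glia that form myelin. They summed to 7068 CPM in replicate 1 and 4965 in replicate 2, a ratio of 1.42. Mir219a-2 alone carried this difference (ratio 1.46), as Mir219a-1 had 1.03 and Mir338 1.02. Whether such glia were present at this stage was not tested. The endothelial gene Mir126a, from the lining of blood vessels, had 20304 and 18258 CPM (1.11). The 3 counted leukocyte genes (Mir223, Mir150 and Mir155) summed to 349.0 and 302.5 CPM (1.15), the 3 erythroid genes to 111.8 and 101.7 CPM (1.10), and the 2 counted smooth muscle genes (Mir143 and Mir145a) to 5237 and 5569 CPM (0.940). Within these, Mir150 had a ratio of 0.946, and the erythroid genes went opposite ways, with 1.56 for Mir486, 1.11 for Mir451a and 0.743 for Mir144. The neuronal sum, of uniquely assigned reads only, had a ratio of 1.21. It was carried by Mir128-1 (1.54) and Mir128-2 (1.61), while the most abundant member, Mir9-3, had 0.900. The Hox sum had a ratio of 1.04. No counted gene of these lists was at 0 in both libraries. The part of such cells in the Mir23 levels was not tested.

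The nearest genes in the pair of library values, by Euclidean distance of log2(CPM + 1) over the 2 libraries, were as follows. For Mir23a they were Mir92-1 (distance 0.0410) and Mir298 (0.141), and for Mir23b Mir26b (0.159) and Mir322 (0.240). Mir27a was nearest to Mir19a (0.0984) and Mir135a-2 (0.125), and Mir27b to Mir467c (0.0330) and Mir598 (0.0674). With 2 libraries this measure follows the level almost alone, and no member was among the nearest genes of another.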

How the data were processed

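The authors deposited 1 table of raw counts for each library, whole numbers of reads on each miRNA gene, with a both-strand column and 2 single-strand columns. Per the descriptions deposited with the files, the counts were made on mm10 with genome annotation M4 from that library's alignment. How reads were trimmed, aligned and counted is not given in the sources that were used. The strand column with the larger total was read as the gene's own strand. The 4 rows that name no gene (62.3% of the reads in the file of replicate 1 and 53.1% in replicate 2) were left out. A count of 0 allows up to 0.625 and 0.678 CPM (3 counts).

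Symbols and positions came from GENCODE M21, which shares the assembly: 1894 of 1973 identifiers matched without version, and none of the 79 others was detected. Sequences came from RefSeq (GRCm38.p6). The neuronal entry Mir9-1, the endothelial Mir126b, the smooth muscle Mir145 and the leukocyte Mir142 and Mir142hg matched no counted symbol and were not analysed.

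With 1 group, no test between conditions was made, and edgeR 4.0.16 (R 4.3.3) served only for TMM scaling as an alternative. Errors are the SD of 2 libraries, and intervals are exact binomial (95%). The log scale used a pseudocount of 1 CPM. The genes named are the 4 members, the other genes of the clusters, miRNA genes within 50 kb, seed relatives, marker lists and the 2 detected genes nearest to each member. The next genes in the order of levels and the shifted-seed relatives were added later. The members and lists were chosen with earlier results of these data known. The fold between libraries was tried on simulated counts that held read-counting error only. They lacked the spread between replicates, so they do not show how the measure performs on these libraries. Computations used Python 3.11.15, numpy 2.4.6, pandas 2.3.3 and scipy 1.17.1, and figures matplotlib 3.10.9.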

Additional observations from a re-analysis of the deposited data

Results flagged for a closer look

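At the place of Mir3074-1, the strand column not used for levels held 181 reads in replicate 1 and 147 in replicate 2, above the 3 counts that a count of 0 allows. The own-strand column held 82.5% and 85.8% of the reads there, against 100% in both libraries for Mir23a, Mir23b and Mir27a.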

How the results depend on the processing

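Both paralog ratios and both within-cluster ratios stayed above 1 under each alternative run for them. The both-strand column and the hairpin length could hardly move ratios of this size, so this outcome was all but fixed in advance. How multimapping reads divide between the copies was not among the alternatives. Ratios within a library do not depend on its total, whereas CPM and shares move with the denominator by construction. When multimapping reads were added to the denominator, Mir23b had 7501 CPM, Mir23a 2433, Mir27b 744.9 and Mir27a 60.8, and the 4 genes held 1.07% of the reads. Without the 2 most abundant genes in the denominator the values were 18607, 6042, 1841 and 149.9 CPM and 2.66%. With the both-strand column, Mir27b had 1218 CPM. Per base of hairpin, an alternative chosen after seeing the data, the ratio of Mir27b to Mir27a was 14.7. With TMM-scaled totals the log2 ratio of the libraries was 0.28 for Mir23a, 0.19 for Mir23b, -0.19 for Mir27a and -0.05 for Mir27b, and with the median ratio of detected genes set to 1 it was 0.28, 0.18, -0.20 and -0.05. The number of genes at least 1.5-fold apart was 24 of 269 when each library had to hold 100 or more reads, and 117 of 736 with at least 1 read in either. Of the 70 alternative values, 52 stayed within 1 SD of the 2 libraries, within the counting interval or, for counts of genes, within 1.5 times. These 52 include the log2 ratios given here for Mir27a and Mir27b. They also include the 20 values that leave out 1 library, which lie within 1 SD of a mean of 2 by construction. Mir27a, with 458 and 470 reads, has the widest counting interval of the 4 relative to its level.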

Other observations

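Uneven counts of uniquely assigned reads were common among neighbouring hairpins in these libraries. Among 64 pairs of consecutive detected miRNA genes on the same strand within 1 kb, a comparison chosen after seeing the data, the median ratio of the higher to the lower gene was 7.25 (geometric mean of the 2 libraries). Mir23a and Mir27a, 40.1-fold apart on this measure, had the 13th highest ratio, and Mir23b and Mir27b, 10.1-fold apart, the 27th. Between the libraries the ratio of a pair shifted by a median of 1.20-fold, against 1.39-fold for Mir23a over Mir27a and 1.18-fold for Mir23b over Mir27b. Some pairs hold a gene with a further copy elsewhere, such as Mir24-2 or Mir19b-1, and reads that match both copies are in no gene's count. Mir20a and Mir19b-1, for example, were 515-fold apart. The share of such lost reads in the median and in the ranks was not tested. Pairs can share a gene or a primary transcript, so they are not independent, and no test was made.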
